A study of Mus musculus with 6 samples.

Results

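The enzymes described here are 10 lysosomal proteins that break down antigen in B cells: *Ctss*, *Ctsl*, *Ctsb*, *Ctsd*, *Ctsh*, *Ctsz*, *Ctsc*, *Ctsa*, *Lgmn* and *Ifi30*. They were chosen by function, by name, with earlier results of these data known. All 10 were among the 24499 genes of the deposited table and among the 13296 genes with enough counts to be tested. Their mRNA was measured by bulk RNA-seq in in vitro germinal center B cells (iGCBs) that had or had not lost *Eif3e*, the gene of a subunit of translation initiation factor eIF3. Naïve B cells from the spleens of 3 cKO and 3 control mice were grown for 3 days on 40LB cells with IL-4 at 1 ng/ml, and YFP+ cells were then sorted. 40LB is a line of BALB/c 3T3 fibroblasts that expresses CD40L and BAFF, and it was irradiated at 120 Gy before use. The cKO mice carried floxed *Eif3e* on both alleles (fl/fl), the Cre allele *Cγ1*Cre and the reporter *Rosa26-YFP* LSL. The genotype label of the control libraries is control, with library names that hold the tag cgWT. In the study's analysis of spleens by age, controls had the Cre allele and the reporter without the floxed alleles. Controls of its survival cohort also included mice with floxed *Eif3e*. Because the control cells sorted here were YFP+, Cre and the reporter were taken to be present in both groups. *Cγ1*Cre places Cre under control of the Ig γ1 locus, which B cells open after activation. YFP marks cells in which Cre has acted, and in some of them this may have happened before the culture. All mice were on the C57BL/6J background, and their age is not given in the sources used here. Each library came from 1 mouse.

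Proteins taken up by a B cell are unfolded and cut in acidic endosomes and lysosomes, and the peptides are loaded there onto MHC class II. Some of the same enzymes also cut the invariant chain, *Cd74*, which guards the class II groove until loading. Most lysosomal proteases are made as inactive precursors, and several of them cut and activate one another. Their mRNA level says nothing about this activation.

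The mRNA of 7 of the 10 enzymes fell in cKO iGCBs and that of 1 rose at an adjusted p under 0.05 (edgeR's quasi-likelihood test, Benjamini-Hochberg adjusted over all genes tested). Of all genes tested, 24.5% were called lower and 24.1% higher by the same rule. When a change of over 1.5-fold was also required, 4 of the 10 enzymes were called lower and 0 higher, against 10.6% and 10.4% of all genes. These 4 were *Lgmn*, *Ctsd*, *Ctsc* and *Ctsa*. The median log2 fold change of the 10 enzymes, cKO over control, was −0.41, where that of all genes tested was −0.0040. For 9 of the 10 enzymes the groups did not overlap, and 58.7% of all genes tested showed no overlap either. In bulk RNA, fewer cells that express a gene and less of its RNA per cell cannot be told apart.

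**Figure D1:**
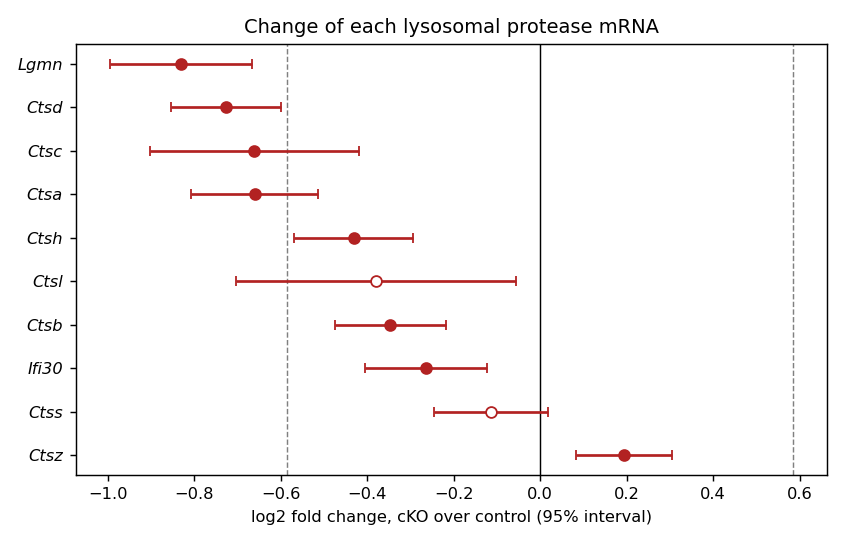
The log2 fold change of each enzyme mRNA, cKO over control, is plotted on the x axis, with its 95% interval as the bar. Filled points passed an adjusted p under 0.05 and the dashed lines mark 1.5-fold. The values run from −0.83 for *Lgmn* to 0.19 for *Ctsz*, and the open points are *Ctsl* and *Ctss*.

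The labels and the cells were checked first, with levels given as CPM, the counts of each library scaled to a common total with TMM factors. *Eif3e* was present at 173, 150 and 152 CPM in the 3 cKO libraries and at 424, 401 and 392 CPM in the controls, a log2 fold change of −1.36 (adjusted p = 6.71e-07, edgeR). This count covers the whole gene, also the exons outside the floxed part. The libraries held between 39079582 and 45504570 counts, so that 3 counts correspond to between 0.0661 and 0.0763 CPM, which covers counting error only. The enzymes had between 344 and 13227 counts per library, far above this limit. The 6 B cell markers summed to between 3724 and 3821 CPM in cKO and between 3463 and 3678 CPM in control libraries, with 4 called higher and 2 lower in cKO. The 12 fibroblast markers, which the feeder cells could bring, summed to between 106 and 132 CPM in cKO and between 79.8 and 146 CPM in control libraries, with *Lum* and *Postn* at 0 in all. The sums overlapped, but of the 9 tested 2 were called higher, *Col5a1* at 3.05-fold (adjusted p = 0.000185) and *Fn1* at 2.10-fold (adjusted p = 0.000651), and 0 lower. The 12 markers of macrophages and dendritic cells, both rich in these enzymes, summed to between 34.1 and 47.9 CPM in cKO and between 42.0 and 47.6 CPM in control libraries, with *Cd14* and *Siglech* at 0. Of the 5 tested, *Adgre1* was 3.90-fold higher in cKO, at 3.64 to 5.54 CPM against 0.620 to 2.02 CPM (adjusted p = 0.00203), *Mpeg1* was 2.18-fold higher (adjusted p = 0.0248), and *Flt3*, the most abundant of them, had a log2 fold change of −0.70 (adjusted p = 0.0143). T cell markers did not pass 0.355 CPM in sum. The 3 germinal center markers summed to 236 to 243 CPM in cKO against 264 to 309 CPM, with 2 called lower and 1 higher. The 5 plasma cell markers summed to 157 to 176 CPM against 380 to 480 CPM, with *Xbp1*, *Jchain* and *Prdm1* called lower, while *Sdc1* was 3.02-fold higher in cKO (adjusted p = 2.06e-05). The part of these marker changes in the results below was not tested, except that the fit was repeated with one of the lists. With the fibroblast markers as a covariate, the 7 enzymes lower and the 1 higher were called as before.

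*Lgmn* encodes legumain, or asparaginyl endopeptidase, which cuts after asparagine and makes early cuts in the invariant chain and in some antigens. The gene lies on the minus strand at chr12:102394084-102439813 (mm10, GENCODE M21). *Lgmn* was measured at 76.5, 83.8 and 69.3 CPM in cKO and at 136, 130 and 142 CPM in control libraries. Every cKO library was thus well below the lowest control. On the log2 scale the difference was −0.83, with a standard error of 0.0736 and an adjusted p of 1.29e-05, which left 56.2% of the control level, the lowest share among the 10 enzymes.

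*Ctsd* encodes cathepsin D, the main aspartic endopeptidase of lysosomes (minus strand, chr7:142375911-142388038). It stood at 58.1, 56.0 and 53.1 CPM in cKO and at 94.2, 89.8 and 92.7 CPM in control libraries. The spread within each group was small, with a coefficient of variation of 4.55% in cKO and 2.40% in control, and the groups lay far apart. The log2 fold change was −0.73 with a standard error (SE) of 0.0568 and an adjusted p of 6.36e-06, or 60.4% of control.

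*Ctsa* encodes cathepsin A, a serine carboxypeptidase that also holds and protects the glycosidases *Neu1* and *Glb1* in a complex (plus strand, chr2:164832873-164841032). Its values were 117, 108 and 108 CPM in cKO and 169, 166 and 191 CPM in control libraries. The groups did not overlap, and the log2 fold change was −0.66 (adjusted p = 2.6e-05, SE 0.0657). *Ctsa* was thus measured at 63.3% of control.

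*Ctsc* encodes cathepsin C, or dipeptidyl peptidase I, which takes dipeptides from the amino terminus and activates the granule serine proteases of other leukocytes (plus strand, chr7:88278085-88310888). The cKO libraries held 102, 96.4 and 99.3 CPM and the control libraries 146, 134 and 190 CPM. The cKO values were close together, while control replicate 3 stood above the other controls. The log2 fold change was −0.66 (adjusted p = 0.000622, SE 0.108). Without control replicate 3 it was −0.50 (adjusted p = 0.000216), which still passed the p threshold but no longer 1.5-fold.

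*Ctsh*, *Ctsb* and *Ifi30* fell by less than 1.5-fold. *Ctsh* encodes cathepsin H, mainly an aminopeptidase (plus strand, chr9:90054152-90076089), and was measured at 187, 171 and 188 CPM in cKO and at 233, 240 and 264 CPM in control libraries. Its log2 fold change was −0.43 (adjusted p = 0.000261, SE 0.0617), with no overlap. *Ctsb* encodes cathepsin B, an endopeptidase that also removes dipeptides from the carboxyl terminus (plus strand, chr14:63122462-63145923). It stood at 107, 102 and 107 CPM in cKO and at 131, 129 and 143 CPM in control libraries. Its log2 fold change was −0.35 (adjusted p = 0.000674, SE 0.0576), again with no overlap. *Ifi30* encodes GILT, an interferon-γ-inducible thiol reductase that opens disulfide bonds of antigens so that proteases can reach them (minus strand, chr8:70762774-70766663). It was measured at 256, 254 and 234 CPM in cKO and at 293, 279 and 321 CPM in control libraries. The decrease was the smallest of those that passed, with a log2 fold change of −0.26 (adjusted p = 0.00593, SE 0.0632), and the groups did not overlap.

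*Ctss* and *Ctsl* did not pass the threshold. *Ctss* encodes cathepsin S, the cysteine endopeptidase that makes the late cuts of the invariant chain in B cells and dendritic cells (plus strand, chr3:95526786-95556403). It was measured at 215, 202 and 228 CPM in cKO and at 229, 224 and 246 CPM in control libraries, and cKO replicate 3 lay within the control range. The log2 fold change was −0.11 (95% interval −0.25 to 0.02, adjusted p = 0.137), so that these libraries leave room for a level between 0.843 and 1.01 of control. When the sex of the mouse, read from *Xist* and Y chromosome genes, was a covariate, it was −0.16 (adjusted p = 0.0481). *Ctsl* encodes cathepsin L, an endopeptidase that has the corresponding task in thymic epithelium (minus strand, chr13:64359337-64370890). It stood at 9.04, 9.67 and 8.11 CPM in cKO and at 13.9, 10.4 and 10.6 CPM in control libraries, the lowest level of the 10. The libraries did not overlap, but control replicate 1 was well above the other controls, and the log2 fold change was −0.38 (95% interval −0.70 to −0.06, adjusted p = 0.0532). It ranged from −0.46 without control replicate 2 (adjusted p = 0.0441) to −0.23 without control replicate 1.

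*Ctsz* alone among the 10 enzymes was called higher. It encodes cathepsin Z, also named cathepsin X, a carboxypeptidase that removes single residues (minus strand, chr2:174427493-174439039). *Ctsz* was measured at 225, 233 and 218 CPM in cKO and at 189, 201 and 202 CPM in control libraries. All cKO values were above the highest control, with a log2 fold change of 0.19 (adjusted p = 0.0090, SE 0.05), or 1.14-fold. The ratio of *Ctsz* to *Ctss* counts does not depend on how libraries are scaled to one another, and it was 1.05, 1.15 and 0.958 in cKO against 0.826, 0.897 and 0.821 in control libraries. The ratio is a description, since *Ctsz* was taken for it as the enzyme that was higher.

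**Figure D2:**
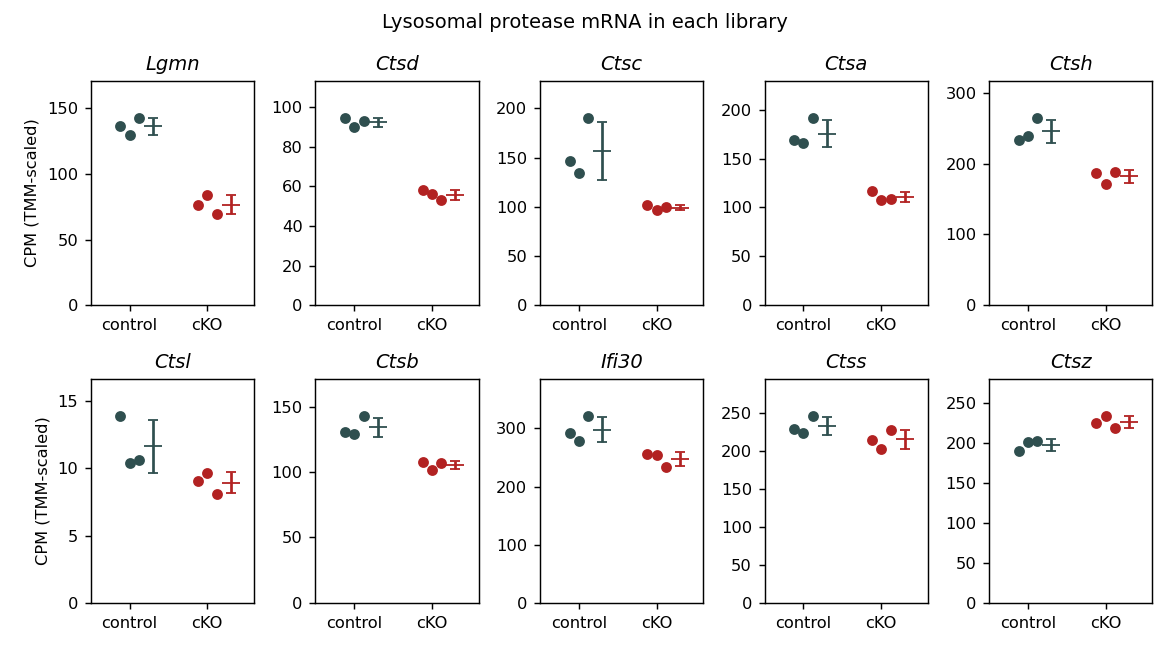
Each panel plots 1 enzyme mRNA in CPM (y axis, from 0) for the 3 control and the 3 cKO libraries (points), with the mean and SD beside them. The panels have their own scales, *Lgmn*, *Ctsd*, *Ctsc* and *Ctsa* show the widest gaps relative to their control level, *Ctss* overlaps, and *Ctsz* is higher in cKO, at 218 to 233 CPM against 189 to 202 CPM.

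The groups contained both sexes. Cells of female mice, by *Xist*, were in 1 cKO and 2 control libraries, and cells of male mice in 2 cKO and 1 control library. Within each sex, 9 of the 10 enzymes were lower in every cKO library than in every control library of that sex, and *Ctsz* was higher. Of all genes tested, 33.4% were lower and 33.5% higher by the same rule in both sexes. For *Lgmn* the log2 ratio of the mean CPM was −0.67 between female and −0.97 between male libraries. For *Ctss* it was −0.16 and −0.15. With so few libraries in each sex, these values are given without a test.

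Levels of different genes were compared per transcript length, as TPM, the transcript counts divided by transcript length and scaled to the same sum in every library. In control iGCBs *Ifi30* was the most abundant of the 10, at 622 ± 38.6 TPM (SD, n = 3), followed by *Ctss* at 353 ± 14.1, *Ctsh* at 312 ± 18.4 and *Ctsz* at 281 ± 10.5 TPM. These 4 had ranges that did not overlap, and their means stood above those of at least 97.3% of the genes with any TPM. Next were *Lgmn* at 140 ± 4.91, *Ctsc* at 123 ± 21.4 and *Ctsa* at 105 ± 7.15 TPM, where *Lgmn* and *Ctsc* overlapped, as did *Ctsc* and *Ctsa*. *Ctsd* followed at 89.0 ± 1.56 TPM and *Ctsb* at 58.0 ± 2.73 TPM, and *Ctsl* was lowest at 12.1 ± 2.01 TPM. In cKO iGCBs *Ifi30* was still first, at 512 ± 23.4 TPM. *Ctss* at 322 ± 22.7 TPM and *Ctsz* at 317 ± 7.19 TPM came next and overlapped, and *Ctsh* ranked after them at 228 ± 14.7 TPM. *Lgmn* at 77.8 ± 6.55 TPM and *Ctsc* at 76.8 ± 3.11 TPM also overlapped in cKO. *Ctsa*, *Ctsd*, *Ctsb* and *Ctsl* kept their order, from 68.5 ± 4.29 to 9.18 ± 0.715 TPM.

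The 10 enzymes together reached 1753.5, 1678.3 and 1695.9 TPM in cKO and 2040.0, 2029.1 and 2217.4 TPM in control libraries. *Ctsz* made up 18.6% ± 0.615 of this total in cKO and 13.4% ± 0.729 in control, while *Lgmn* made up 4.56% ± 0.417 and 6.71% ± 0.169 (SD, n = 3 each). *Ifi30* had nearly the same share in both, at 29.9% ± 1.12 and 29.7% ± 0.511. Shares of one total depend on one another, and they were not tested.

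**Figure D3:**
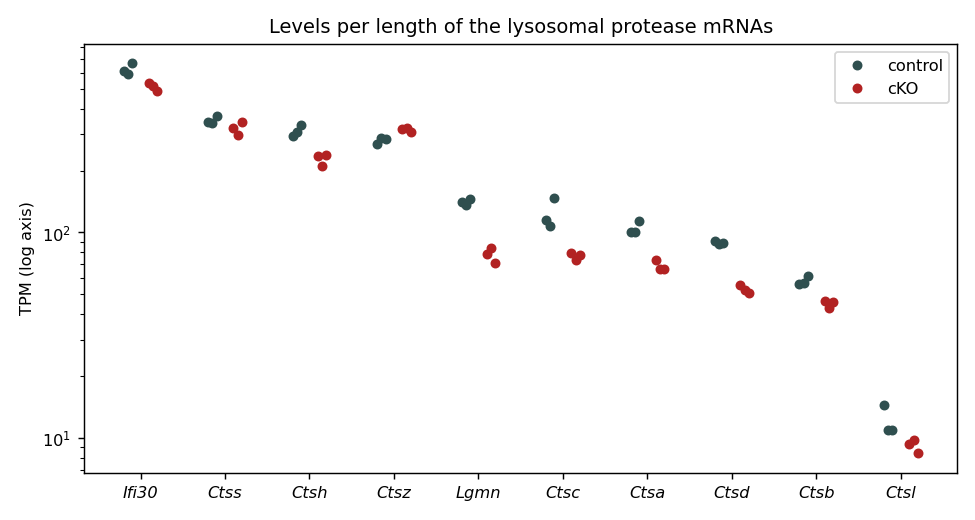
The level of each enzyme mRNA per transcript length is plotted in TPM (log axis), with 1 point per library, ordered by the control mean from *Ifi30* to *Ctsl*. *Ctsz* rises to the level of *Ctss* in cKO (317 and 322 TPM), while *Lgmn* drops from 140 to 77.8 TPM.

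The table lists 1 transcript for 6 of the enzymes and 2 transcripts for *Ctss*, *Ctsh*, *Ctsc* and *Ctsa*. Transcript use was called in 1.38% of the 3050 genes that could be tested (edgeR's diffSpliceDGE) and in none of these 4, with adjusted p between 0.589 and 0.999981 and an unadjusted p under 0.05 for 1 of them. This was *Ctsa* (unadjusted p = 0.0327, adjusted p = 0.589). Its transcript NM_001038492 made up 28.3, 26.5 and 20.7% of *Ctsa* counts in cKO and 13.9, 14.2 and 14.2% in control libraries. The shares did not overlap, although the call was not made. NM_008906 stood at 83.0 ± 3.30 CPM in cKO and at 151 ± 11.5 CPM in control (SD, n = 3 each), which is −0.86 on the log2 scale (adjusted p = 0.00112 over all transcripts tested, SE 0.0683). NM_001038492 stood at 28.0 ± 5.38 and 24.8 ± 2.12 CPM, with a log2 fold change of 0.18 (adjusted p = 0.491, SE 0.160). In GENCODE M21 the model of NM_008906 has 16 exons and 1476 coding bases, with the start codon at position 164833797 of chromosome 2. That of NM_001038492 has 15 exons and 1422 coding bases, with the start codon at position 164834030.

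**Figure D4:**
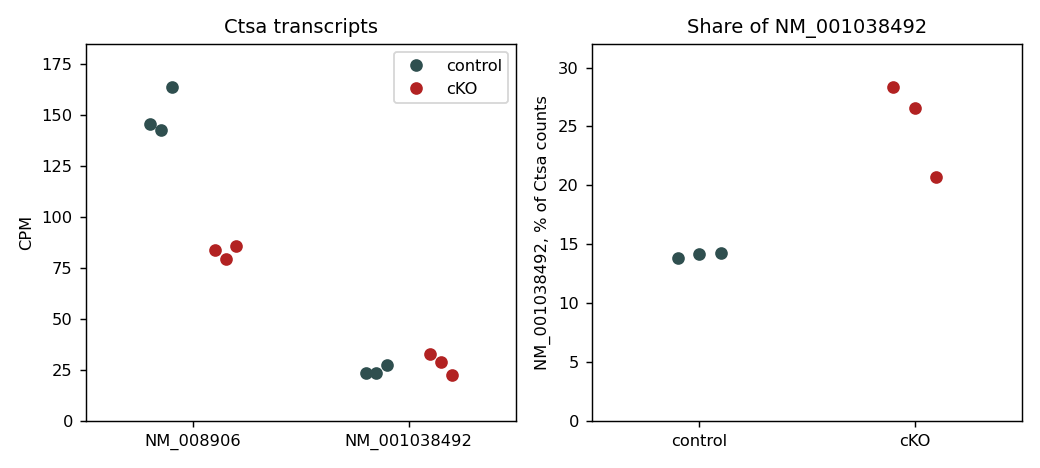
The left panel plots the CPM of both *Ctsa* transcripts, with 1 point per library, and the right panel plots the share of NM_001038492 among *Ctsa* counts in percent. NM_008906 is lower in cKO (83.0 against 151 CPM), NM_001038492 overlaps between groups, and its share is 20.7 to 28.3% in cKO against 13.9 to 14.2% in control.

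Some enzymes share bases with genes on the opposite strand, and whether reads were counted by strand is not given in the sources used here. Exons of NM_008906 share 296 bases with *Neurl2* and 495 with *Pltp*, and those of NM_001038492 share 324 and 311. *Neurl2* had 353, 366 and 243 counts in cKO and 741, 672 and 800 in control libraries, and *Pltp* had at most 171 in any library. *Ctsb* shares 774 exon bases with *Fdft1*, which had 1819, 1597 and 1531 counts in cKO and 3752, 2897 and 3690 in control libraries (log2 fold change −1.14, adjusted p = 4.74e-06). *Ctsz* shares 10 exon bases with *Nelfcd*. The part of these neighbours in the values was not tested.

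The promoters of the enzymes were read for CACGTG, the E-box core that transcription factors of the MiT family, such as TFEB and TFE3, bind in many lysosomal genes. RefSeq promoters (GRCm38.p6, from 250 bases before to 50 bases after a start) were at hand for 8 of the 10 genes, in 10 promoters, while *Ctsb* and *Ctsh* had no entry. The letters CACGTG, which read the same on both strands, were in 5 of these 10 promoters, 1 each of *Ctsa*, *Ctsd*, *Ctsl*, *Ifi30* and *Lgmn*, and in 7.15% of all 32851 promoters. The longer CACGTGAC, read on either strand, was in 4 of these 10 promoters, with *Ctsl* the exception among the 5 genes with a match. Of all promoters, 2349 held CACGTG and 738 (2.25%) held CACGTGAC. The motif was chosen with these promoters in view, so that the counts are a description. A window of 30 bases is shown for each of the 5 genes, on the strand of the gene. CACGTG is in capitals, because these are the letters by which these 5 windows were picked.
*Ctsd*: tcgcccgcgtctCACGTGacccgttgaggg
*Ctsa*: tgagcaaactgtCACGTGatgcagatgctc
*Lgmn*: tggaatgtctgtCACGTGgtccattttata
*Ifi30*: atccaaaaacttCACGTGaccagacatgct
*Ctsl*: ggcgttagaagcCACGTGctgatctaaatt
These windows lie at chr7:142387908-142387937 (minus strand), chr2:164833749-164833778 (plus), chr12:102439124-102439153 (minus), chr8:70766842-70766871 (minus) and chr13:64370739-64370768 (minus). Distances are from the start that the RefSeq promoter table uses. In *Ctsd*, *Ctsa*, *Lgmn* and *Ctsl* that start lies downstream of the outermost GENCODE start given above, so that these 4 windows fall inside the printed gene spans, and only that of *Ifi30* lies outside. The match begins 98 bases before the RefSeq start in *Ctsd*, 12 in *Ctsa*, 49 in *Lgmn*, 196 in *Ifi30* and 236 in *Ctsl*. *Ctsd* and *Ctsa* each held another match in the same promoter. Among the 8 genes, the log2 fold changes of those with a match ran from −0.83 (*Lgmn*) to −0.26 (*Ifi30*). Those without one were −0.66 (*Ctsc*), −0.11 (*Ctss*) and 0.19 (*Ctsz*), so that the values of genes with and without a match overlapped.

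The genes around these enzymes were counted by lists, whose counts are to be read against the 24.5% of all genes tested that were called lower and the 24.1% called higher, and past 1.5-fold against 10.6% and 10.4%. Of 12 other lysosomal and endosomal proteases, 10 were tested, 5 fell and 1 rose, with a median log2 fold change of −0.48. Those past 1.5-fold were *Scpep1*, a serine carboxypeptidase related to *Ctsa*, *Ctse*, an aspartic protease of endosomes related to *Ctsd*, and the cysteine protease *Ctso*. *Scpep1* was measured at 75.6, 68.9 and 60.2 CPM in cKO and at 160, 150 and 163 CPM in control libraries (log2 fold change −1.21, adjusted p = 2.85e-06). *Ctse* had a log2 fold change of −1.20 and *Ctso* one of −0.70. The one that rose was *Prcp*, a carboxypeptidase that cuts after proline, with a log2 fold change of 0.26 (adjusted p = 0.0343), and no gene of this list was called higher in 6 of the 16 alternative settings.

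The glycosidases protected by cathepsin A fell with it. *Neu1*, the lysosomal neuraminidase, was measured at 37.0, 38.4 and 38.1 CPM in cKO and at 60.8, 64.4 and 62.2 CPM in control libraries, a log2 fold change of −0.72 (adjusted p = 1.35e-05). *Glb1*, the β-galactosidase, stood at 66.1, 61.4 and 59.4 CPM against 105, 103 and 88.7 CPM (−0.67, adjusted p = 5.39e-05). The list of 11 lysosomal hydrolases and membrane proteins that holds both had 8 lower and 0 higher, with a median of −0.43. *Gaa*, the acid α-glucosidase, changed most in this list, with a log2 fold change of −0.84.

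The mRNA of all 9 genes of the MHC class II list fell, 5 of them past 1.5-fold, with a median log2 fold change of −0.60. Protein can differ from this, and the paper names some class II genes among those with increased translation efficiency in day 3 cKO iGCBs. *Cd74*, the substrate of *Lgmn* and *Ctss*, was measured at 6388, 6366 and 6597 CPM in cKO and at 9685, 9604 and 10267 CPM in control libraries (log2 fold change −0.61, adjusted p = 7.81e-07). *H2-Ab1*, a class II β chain, had a log2 fold change of −0.64. *H2-Oa* and *H2-Ob*, the chains of the H2-O modulator of peptide loading, had values of −0.95 and −0.63. Of 12 genes listed as cystatins and other protease inhibitors, only 5 were expressed enough to be tested. Among these, 3 fell: *Serpinb6b* (−1.35), *Cstb* (−0.45) and *Cst3* (−0.31), the last of them cystatin C, a secreted inhibitor of cysteine cathepsins. Whether *Serpinb6b*, the only gene of this list past 1.5-fold, inhibits any of the enzymes described here was not tested.

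The list of 11 transcription factors of lysosomal, class II and interferon genes held 10 tested, of which 3 rose and 2 fell, with a median of 0.11. These counts are near the shares of all genes tested, 24.1% higher and 24.5% lower. *Spi1*, which encodes PU.1, stood at 51.2, 52.8 and 57.0 CPM in cKO and at 99.3, 99.3 and 94.9 CPM in control libraries (log2 fold change −0.87, adjusted p = 3.07e-06). Of the MiT family, *Tfe3* rose by 0.30 on the log2 scale (adjusted p = 0.00399), while the value of *Tfeb* was 0.08 (adjusted p = 0.328).

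**Figure D5:**
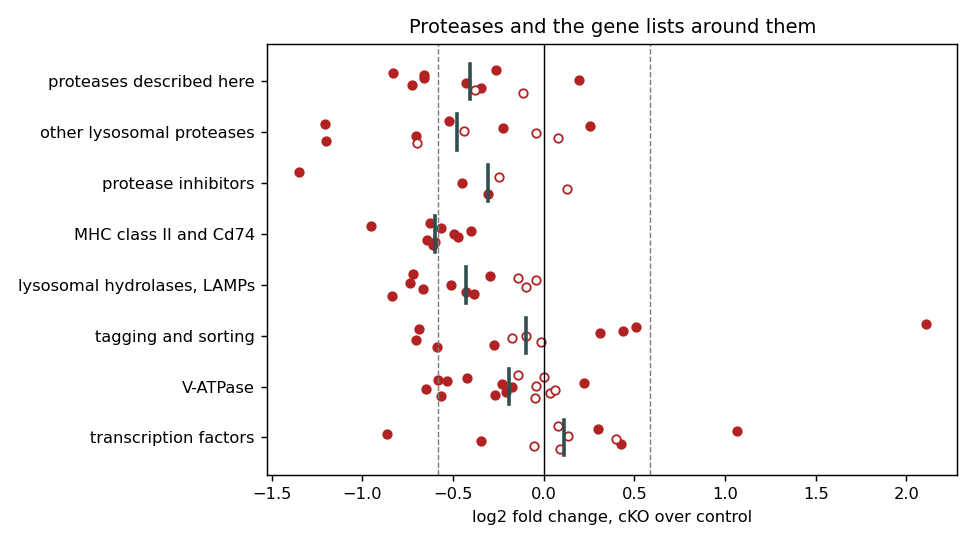
Each point is 1 tested gene, placed by its log2 fold change, cKO over control, with 1 line of genes per list. Filled points passed an adjusted p under 0.05, dark bars are medians and dashed lines mark 1.5-fold. The medians run from −0.60 for MHC class II and *Cd74* to 0.11 for the transcription factors, with the enzymes described here at −0.41.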

How the data were processed

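RNA-seq of sorted day 3 YFP+ iGCBs covered 3 cKO and 3 control libraries, grouped by their labels, each from a separate mouse. Per the paper's methods and the labels, reads were trimmed, HISAT2 and the mm10 build were used for alignment, and StringTie for quantification. The authors deposited estimated counts for genes and for RefSeq transcripts, written by prepDE and not normalized. The files hold whole numbers, so that no value was altered by rounding. prepDE turns coverage into counts through a read length setting, which is not given in the sources used here, so that a count need not be 1 fragment. The general culture protocol gives a longer culture than the 3 days of the RNA-seq labels.

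Genes were tested with edgeR 4.0.16 in R 4.3.3: filterByExpr (minimum count 10), TMM, and the quasi-likelihood test of cKO against control without covariates, Benjamini-Hochberg adjusted over 13296 genes. Calls used an adjusted p under 0.05, alone or with a change over 1.5-fold. Transcript use was tested with diffSpliceDGE. TPM was computed from transcript counts and GENCODE M21 lengths matched by RefSeq accession, and for *Ifi30* from the longest transcript of that symbol. Alternatives were DESeq2 1.42.0, other scalings and filters, counts divided by 2, gene counts summed from transcripts, replicate, sex or fibroblast markers in the fit, other fold rules, and each library left out. The fits were tested on simulated data.

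The enzymes and lists were chosen with earlier results of these data known. Besides the 10 enzymes and *Eif3e*, the text names from each list up to 4 genes past both cutoffs, or the 2 most abundant where fewer than 2 passed. *Prcp*, *Tfe3*, *Tfeb*, *M6pr*, *Nagpa*, *Scarb2*, *Atp6v1c1*, the cell type markers named singly and the genes overlapping an enzyme were singled out after their values were seen. Some genes that this rule names are not reported here.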

Additional observations from a re-analysis of the deposited data

How the results depend on the processing

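Over 16 alternatives no enzyme changed direction, and 158 of 160 values kept their side of the threshold. The exceptions were *Ctss* with sex as a covariate and *Ctsl* without control replicate 2, both called lower. With a test against 1.5-fold itself (glmTreat), 2 enzymes rather than 4 were called lower, and with no fold cutoff 7 lower and 1 higher. Among the other proteases and the V-ATPase subunits, the count of 1 higher gene was 0 with sex or fibroblast markers as a covariate, and 0 to 1 when single libraries were left out. The deviations of same-numbered libraries correlated at 0.00851, 0.0839 and 0.133, so the numbers were not taken to pair the mice. With the replicate block 7 enzymes were lower and 1 higher, as without it, and the adjusted p for transcript use of *Ctsa* was 0.862. Leaving out single libraries gave 0.582 to 0.999996, and a filter of at least 10 counts in every sample gave 0.170, against 0.589 as reported. With 3 mice a group, changes near 1.5-fold are not well placed on either side of that cutoff.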

Other observations

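Newly made lysosomal enzymes are tagged with mannose 6-phosphate and carried by receptors and adaptors. The list of 11 genes covers the tagging and sorting of lysosomal enzymes more broadly, also sorting without this tag. Among them 4 fell and 4 rose, with a median log2 fold change of −0.10, where 24.5% of all genes tested were called lower and 24.1% higher. *Gnptab*, the catalytic part of the tagging enzyme, was measured at 101, 103 and 108 CPM in cKO and at 181, 169 and 157 CPM in control libraries (log2 fold change −0.70, adjusted p = 1.26e-05, edgeR's quasi-likelihood test). *Psap*, the precursor of the saposins, had a log2 fold change of −0.69 and *Gga1*, an adaptor at the trans-Golgi, one of −0.59. *Sort1*, which encodes the sorting receptor sortilin, stood at 6.92, 5.31 and 7.17 CPM in cKO and at 1.48, 0.763 and 2.23 CPM in control libraries (log2 fold change 2.11, adjusted p = 0.00045). The other three that rose, each by less than 1.5-fold, were *M6pr*, *Nagpa* and *Scarb2*.

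The V-ATPase pumps protons into lysosomes. Of its 17 listed genes, 16 were tested, 9 fell and 1, *Atp6v1c1*, rose, with a median log2 fold change of −0.19. Of all genes tested, 24.5% were called lower and 24.1% higher, and past 1.5-fold 10.6% and 10.4%. With sex or fibroblast markers as a covariate, 0 genes of this list were called higher. Only *Atp6v0d1* passed 1.5-fold, at 66.9, 67.2 and 69.4 CPM in cKO against 102, 105 and 113 CPM in control libraries (−0.65, adjusted p = 1.14e-05). *Atp6v0a1* had a log2 fold change of −0.27 (adjusted p = 0.00558), and *Atp6v1a* had −0.04 (adjusted p = 0.546) with overlapping groups.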
